A study of Drosophila melanogaster with 3 samples.

Results

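The genes CG1677, jing, bun, Btk, Kdm4B, sbb, RapGAP1, CG42238 and Svil of Drosophila melanogaster each carried many peaks of the transcription factor Achaete (Ac) in embryos. These 9 genes were chosen by that number: each had 8 or more peak summits of the authors' optimal list inside the gene or within 2000 bp of either end. A summit is the position of strongest signal within a peak. Of 13944 protein-coding genes, 16 (0.115%) reached 8 summits, and 2644 (19.0%) had 1 or more. The other 7 genes with 8 or more were CG32816 (13), Raf and ush (10 each), and Traf4, pros, Antp and hth (8 each), and they are not described here. The 9 genes together held 83 distinct summits of the 2756 in the list. Because these counts chose the genes, they are given as a description with no test. The data came from chromatin immunoprecipitation and sequencing (ChIP-seq) with an antibody against green fluorescent protein (GFP). The material was whole embryos, male and female and 0 to 8 h old, of a transgenic line in which GFP is fused to the C terminus of Ac. There were 3 biological replicates of this 1 group and no second condition, and what drives the fusion gene is not given in the sources used here. Since nothing in the labels says that each replicate was its own collection of embryos, their spread may be technical. In whole embryos, few strongly bound cells and many weakly bound cells cannot be told apart.

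Ac is a proneural basic helix-loop-helix protein of the achaete-scute complex. With its partner Daughterless (Da) it binds short DNA elements called E-boxes and promotes the choice of neural precursors from the ectoderm. The 9 genes have varied roles. jing encodes a zinc finger protein related to mammalian AEBP2, an accessory protein of the Polycomb repressive complex PRC2, and acts in border cells, trachea and the midline of the nervous system. sbb (scribbler, also called brakeless) encodes a nuclear co-repressor needed for photoreceptor axon targeting, and Kdm4B encodes a histone lysine demethylase. bun (bunched) encodes a leucine zipper protein of the TSC22 family that promotes growth. Btk encodes a Tec family tyrosine kinase, RapGAP1 an activator of GTP hydrolysis by the small GTPase Rap1, and Svil an actin-binding protein related to villin and gelsolin. No role is given here for CG1677 or CG42238.

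The sequences at 8 of the summits show both kinds of site found in these genes, those with and those without the E-box known to be bound by Ac or Scute with Da. That E-box was searched as GCAGCTG or GCAGGTG on both strands, which read CAGCTGC or CACCTGC on the other strand. Each window spans 201 bases centred on the summit, on the plus strand of release 6 of the genome (dm6), with letters from RefSeq. Capitals mark each E-box, and the rank is that of the peak by signal in the optimal list, where 1 is the strongest. The first 6 windows hold an E-box and the last 2, from some of the strongest peaks of the set, hold none.
bun, rank 71, coding exon, chr2L:12457777-12457977: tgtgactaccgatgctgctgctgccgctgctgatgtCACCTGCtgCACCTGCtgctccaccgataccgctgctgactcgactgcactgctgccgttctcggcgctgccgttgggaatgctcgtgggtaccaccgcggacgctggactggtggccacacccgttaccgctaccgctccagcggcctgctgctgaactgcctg
bun, rank 631, intron, chr2L:12465787-12465987: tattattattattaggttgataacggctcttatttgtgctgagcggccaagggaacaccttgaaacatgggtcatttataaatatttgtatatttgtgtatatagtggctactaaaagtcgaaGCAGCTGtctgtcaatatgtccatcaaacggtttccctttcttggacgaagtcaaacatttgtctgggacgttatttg
Btk, rank 247, intron, chr2L:8266830-8267030: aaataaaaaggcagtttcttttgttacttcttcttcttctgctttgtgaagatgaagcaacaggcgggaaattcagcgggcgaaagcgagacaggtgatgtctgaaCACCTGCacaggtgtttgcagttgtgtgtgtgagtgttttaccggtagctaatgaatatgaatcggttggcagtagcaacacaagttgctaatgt
Btk, rank 922, intron, chr2L:8281973-8282173: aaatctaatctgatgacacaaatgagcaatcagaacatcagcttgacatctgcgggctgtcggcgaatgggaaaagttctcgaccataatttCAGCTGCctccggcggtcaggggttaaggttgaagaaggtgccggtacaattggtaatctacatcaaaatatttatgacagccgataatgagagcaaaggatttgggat
CG42238, rank 1774, intron, chr2L:20995874-20996074: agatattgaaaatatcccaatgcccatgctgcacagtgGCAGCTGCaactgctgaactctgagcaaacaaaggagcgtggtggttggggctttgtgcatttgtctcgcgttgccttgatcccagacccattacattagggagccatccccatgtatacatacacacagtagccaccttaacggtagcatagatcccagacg
Svil, rank 1952, intron, chr3L:2384559-2384759: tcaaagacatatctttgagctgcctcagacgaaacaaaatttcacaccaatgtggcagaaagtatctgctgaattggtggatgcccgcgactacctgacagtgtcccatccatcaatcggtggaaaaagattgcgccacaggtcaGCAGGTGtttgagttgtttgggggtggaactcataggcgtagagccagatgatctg
CG1677, rank 32, promoter of CBP, chrX:7336975-7337175: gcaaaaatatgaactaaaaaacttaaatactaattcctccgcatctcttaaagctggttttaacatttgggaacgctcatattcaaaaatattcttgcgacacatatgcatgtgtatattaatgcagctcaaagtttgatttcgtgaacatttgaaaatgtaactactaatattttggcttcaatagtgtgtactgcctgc
RapGAP1, rank 87, own promoter, chr2L:7530586-7530786: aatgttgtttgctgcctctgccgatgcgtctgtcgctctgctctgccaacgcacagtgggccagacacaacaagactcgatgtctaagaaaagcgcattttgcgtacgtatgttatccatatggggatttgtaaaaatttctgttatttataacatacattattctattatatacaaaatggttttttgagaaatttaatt

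In the bun window at rank 71, the 2 E-boxes were centred 61 and 52 bp before the summit, within a coding exon. In the next bun window, in the order printed, the E-box lay 26 bp after the summit. The Btk windows had an E-box 9 bp after the summit at rank 247 and 5 bp before it at rank 922. In CG42238 the 2 matches, centred 59 and 58 bp before the summit, overlap and are the same palindromic element read on both strands. In Svil the E-box lay 48 bp after the summit.

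The summits per gene in the optimal list were 13 in CG1677, 11 in jing, 10 in bun, 9 in Btk, and 8 each in Kdm4B, sbb, RapGAP1, CG42238 and Svil. Of all protein-coding genes, 9 had exactly 8 summits. Just under the threshold, 3 genes had 7: px, InR and shn, whose strongest peaks ranked 1, 67 and 990. A further 13 genes had 6. The genes most like each of the 9, by the nearest number of summits and then the nearest length, were CG32816 for CG1677, ush for jing and bun, Raf for Btk, and Traf4 for Kdm4B. For sbb, RapGAP1 and CG42238 it was pros, and for Svil it was hth. This likeness rests on 1 list and 2 quantities and says nothing about function.

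**Figure D1:**
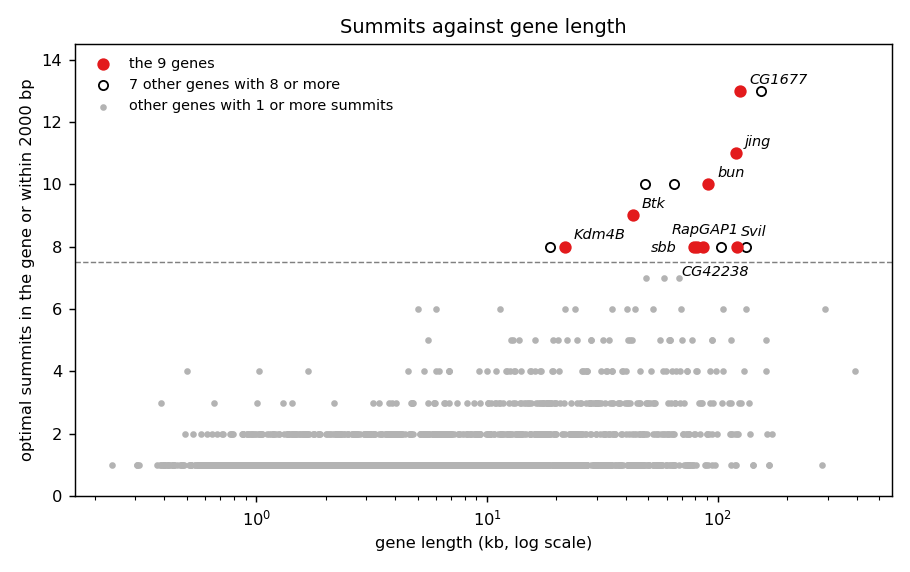
Number of optimal summits in each gene or within 2000 bp of it (y axis) against gene length in kb (x axis, log scale), for every protein-coding gene with at least 1 summit. Filled red points are the 9 genes, open points the 7 other genes with 8 or more, and the dashed line is the threshold; Kdm4B, at 21.8 kb, stands to the left of the other 8 genes.

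All 9 genes are long. They ran from 21.8 kb (Kdm4B) to 125 kb (CG1677), with a median of 86.6 kb, against a median of 2.16 kb over all protein-coding genes. Many long genes had no summit: of the 939 at least as long as Kdm4B, 529 had none. Summits per kb, over the gene and 2000 bp on each side, were 0.310 in Kdm4B and 0.193 in Btk. The other 7 genes had between 0.0637 per kb (Svil) and 0.105 per kb (bun). Together the 9 genes held 0.103 summits per kb, against 0.0206 per kb over the chromosome arms. The rule chose genes by these same summits, so a density above that of the arms is built into it. Genes with at least 1 summit had a median of 0.143 per kb, a value that short genes raise because a single summit is divided by a short stretch. Among the 2644 genes with a summit, 125 were at least as dense as Kdm4B and 561 as dense as Btk, while 2159 were at least as dense as Svil. Kdm4B, the shortest of the 9, had the most summits per kb and Svil the fewest. Counts ran only from 8 to 13, so these densities depend largely on gene length.

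The count in each replicate was taken over its 2756 strongest regions (its top regions), to equal the size of the optimal list. CG1677 had 13, 14 and 10 summits in replicates 1, 2 and 3 (12.3 ± 2.08, SD, n = 3). jing had 10, 12 and 14 (12 ± 2). These 2 genes reached 8 in every replicate. sbb had 7, 9 and 9 (8.33 ± 1.15), RapGAP1 had 5, 9 and 10 (8.00 ± 2.65), and Btk had 7, 9 and 7 (7.67 ± 1.15). bun had 5, 8 and 10 (7.67 ± 2.52), Kdm4B had 4, 8 and 8 (6.67 ± 2.31), and CG42238 had 3, 5 and 9 (5.67 ± 3.06). Svil had 6, 7 and 6 (6.33 ± 0.577), below 8 in all 3 replicates. Among the 7 genes other than CG1677 and jing, some kept their order in every replicate. For example, sbb was ahead of Kdm4B and Svil in all 3, and Btk was ahead of Svil. Others changed order between replicates, such as RapGAP1 and Svil, or bun and Btk.

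Of the 9 genes, 2 reached 8 top-region summits in replicate 1, 7 in replicate 2 and 7 in replicate 3. Over all protein-coding genes the share reaching 8 was 0.0574% (8 genes) in replicate 1, 0.122% (17 genes) in replicate 2 and 0.115% (16 genes) in replicate 3. The replicates gave rise to the optimal list, so these counts are no independent support for it. Replicate 1 was the lowest of the 3 in 6 of the 9 genes, all but CG1677, Btk and Svil, where it equalled or exceeded another replicate. The summed counts were 60, 81 and 83. When optimal summits were kept only where both other replicates had a top-region summit, 3 of the 9 genes reached 8 without replicate 1, 2 without replicate 2 and 2 without replicate 3. Without replicates 1, 2 and 3 in turn, CG42238 then had 4, 2 and 1 summits, Svil 4, 4 and 3, and bun 6, 4 and 4. RapGAP1 had 5, 5 and 6, Btk 5, 5 and 7, Kdm4B 8, 4 and 4, and sbb 6 in each case. CG1677 had 9, 9 and 11 and jing 10, 9 and 9, so jing was ahead of CG1677 without replicate 1 and level with it without replicate 2. Replicate 1 also had the fewest regions at a q value of at most 0.05 genome-wide, 3453 against 9954 in replicate 2 and 7898 in replicate 3. The part of that difference in the gene counts was not tested.

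**Figure D2:**
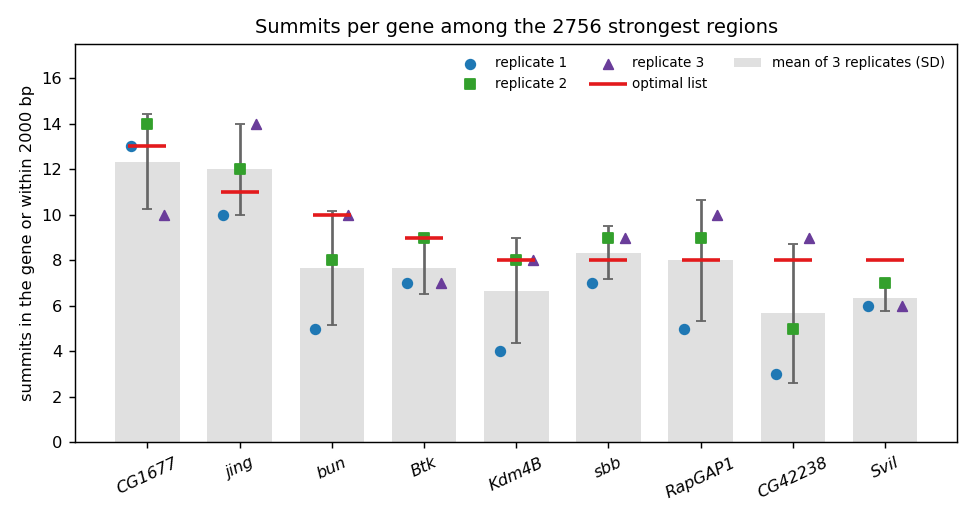
Summits in each gene or within 2000 bp of it (y axis) for the 9 genes (x axis), counted over the 2756 strongest regions of each list. Points are replicates 1 to 3, grey bars and error lines their mean and SD, and red lines the optimal list; CG1677 and jing lie at 10 or more in every replicate, and CG42238 has the widest spread (3 to 9).

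A looser threshold raised the counts unevenly. At a q value of at most 0.05, replicates 1, 2 and 3 held 12, 41 and 28 summits in jing, and 14, 27 and 25 in CG1677. The same counts were 4, 29 and 20 in CG42238 and 6, 11 and 10 in Kdm4B. jing was thus higher than CG1677 in replicates 2 and 3 but not in replicate 1. In the pooled list, made from the reads of all 3 replicates, jing had 28 summits at that q value, CG1677 had 24, RapGAP1 and CG42238 had 19 each, and bun had 17. sbb and Svil had 16 each, Btk had 12 and Kdm4B had 11. The 2756 optimal summits were the 2756 strongest of the pooled list, and the next 2756 pooled regions, down to rank 5512, added between 1 (Btk) and 7 (CG1677, jing and RapGAP1) summits per gene. The whole pooled list is labelled as peaks and background. Only 28 of its 96 summits in jing, 24 of 56 in CG1677 and 11 of 23 in Kdm4B met that q value. Over this whole list, with background included, summits per kb were highest in Kdm4B (0.892) and jing (0.776). They were lowest in Svil (0.422) and CG1677 (0.435), against 0.224 per kb over the chromosome arms. CG1677, first by number of optimal summits, was next to last by this density. By density of optimal summits, CG1677 (0.101 per kb) came after Kdm4B, Btk and bun.

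Of the 83 summits, 44 (53.0%) had a summit within 150 bp in the top regions of all 3 replicates, against 47.5% of all 2756 optimal summits. A further 24 were in the top regions of 2 replicates and 15 of 1. None of the 83 was missing from all of them, against 42 of the 2756. A replicate summit within 150 bp of 2 optimal summits counted for both. This occurred in replicate 1 for a pair in RapGAP1 and a pair in Btk, and in replicate 2 for a pair in Kdm4B. Per replicate, 69.9%, 86.7% and 78.3% of the 83 were present (78.3 ± 8.43%, n = 3), against 71.0%, 83.9% and 70.9% of all optimal summits (75.3 ± 7.44%). Both sets of shares came from the same 3 replicates. Compared within each replicate, the share of the 83 was lower in replicate 1 and higher in replicates 2 and 3. This difference was not tested. By gene, 9 of 13 summits of CG1677, 9 of 11 of jing and 6 of 8 of sbb were in the top regions of all 3 replicates, but only 1 of 8 of CG42238 and 2 of 8 of Svil. Of the 83, 6 had no counterpart at all among the 30000 regions deposited for replicate 1, 2 had none in replicate 3, and each had one in replicate 2.

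Places in the genes were assigned in order, promoter first. Promoter summits lay within 500 bp of the start of a transcript of any protein-coding gene, and an intron is a stretch of the gene outside every annotated exon. Of the 83 summits, 62 (74.7%) were intronic, 18 (21.7%) at promoters, 2 in coding exons and 1 in a 5′ UTR. Over all optimal summits 37.4% were intronic, 37.2% at promoters and 23.0% intergenic. The rule takes summits inside long genes, so a high intronic share is built into it. In the top regions of replicates 1, 2 and 3, the promoter share of summits in the 9 genes was 10.0%, 22.2% and 18.1% (16.8 ± 6.22%). Of the 18 promoter summits, 13 were at a start of the gene itself. Each gene had a summit at a start of its own except CG1677. Of their 48 annotated starts, 12 had a summit, among them 3 of the 16 of Svil and 2 of the 7 of bun.

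**Figure D3:**
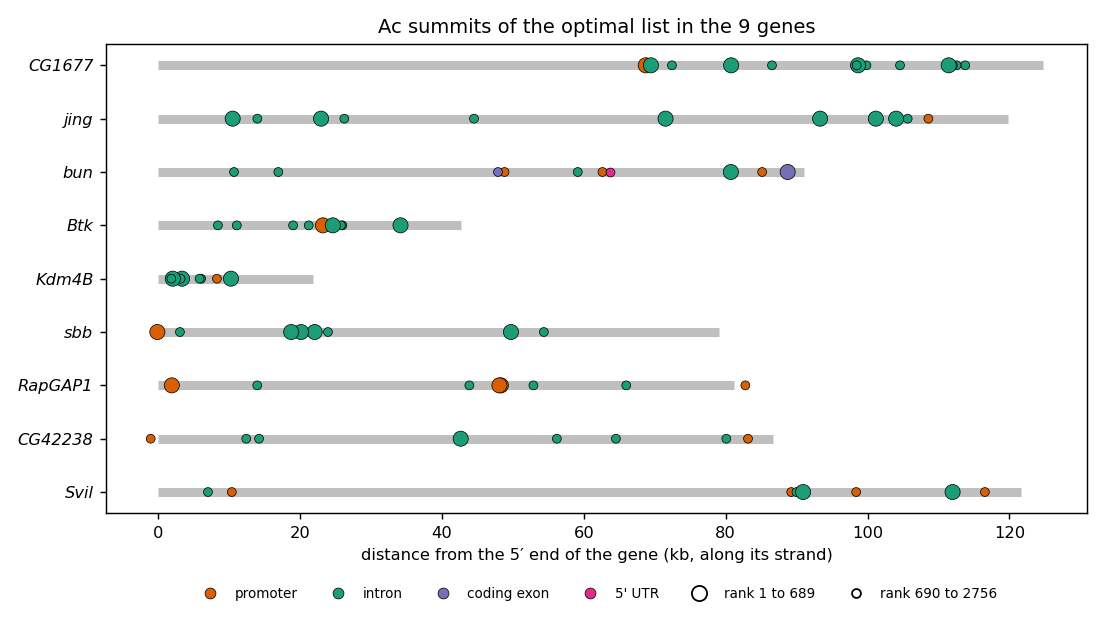
The 9 genes drawn from their 5′ ends along their own strands (grey bars, x axis in kb), with each optimal summit as a point. Colour gives the annotated place and large points are the 689 strongest summits of the list; CG1677 carries its 13 summits between 68.7 and 114 kb, jing carries 10 of 11 within 1 intron, and Kdm4B packs its summits into a short stretch.

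The chromatin and transcription regulators among the 9 were jing, sbb and Kdm4B, all on chromosome arm 2R. sbb (FBgn0285917, minus strand, 2R 18278198 to 18357296) held the strongest peak of the set. Its summit at 18337173 ranked 4 in the optimal list and 10, 2 and 2 in replicates 1, 2 and 3 (4.67 ± 4.62), 20123 bp from the nearest start of sbb, in an intron of 49.4 kb. That intron makes up 62.4% of the gene and held 6 of its 8 summits. The next summit lay 132 bp from a start of sbb, just outside the gene, at 18357428 (rank 139, and 203, 86 and 270 in the replicates, 186 ± 93.1). The third lay in the same large intron, at 18338562 (rank 193, and 222, 164 and 259 in the replicates, 215 ± 47.9). Of the 8 summits, 5 were among the 689 strongest of the list. The median rank of sbb was 424.5, the strongest of the 9 genes, and none of its windows held the E-box. All 3 replicates thus put the peak at 18337173 among their 10 strongest regions.

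jing (FBgn0086655, plus strand, 2R 6502006 to 6621792) had 10 of its 11 summits in 1 intron of 107 kb, 89.2% of the gene. The strongest, at 6606037, ranked 85, and 193, 58 and 111 in the replicates (121 ± 68.0), 4450 bp from the nearest start of jing. The next, at 6573522, ranked 138, and 405, 104 and 64 in the replicates (191 ± 186), 36965 bp from that start. Both windows held 1 E-box. The third, at 6512490, ranked 347, and 798, 248 and 683 in the replicates (576 ± 290), with no E-box. The summit outside this intron, 89 bp from a start of jing, ranked 1707 and was weak in replicate 1, where its rank was 11456, against 1204 and 2997 in replicates 2 and 3. None of jing's summits was assigned to another gene as well. The summit at the start was thus weaker than 8 of the 10 intronic ones, and 6 of the 11 were among the 689 strongest.

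Kdm4B (FBgn0053182, minus strand, 2R 13176553 to 13198337) was the shortest of the 9 genes, and its 8 summits spanned 8.41 kb. Of these, 6 lay in 1 intron of 7.59 kb, in 3 pairs with summits 204 to 210 bp apart. The strongest, at 13194994, ranked 278, and 1843, 162 and 231 in the replicates (745 ± 951). The next, at 13196298, ranked 319, and 1008, 215 and 217 (480 ± 457). Its 2 E-box matches are 1 palindromic element read on both strands. The third, at 13188093, ranked 557, and 780, 397 and 854 (677 ± 245), with 1 E-box. Kdm4B overlaps the gene seq (sequoia), which encodes a zinc finger protein, and CG17724 on the same strand. The only promoter summit, at 13190070, lay 16 bp from starts of all 3 genes, so its gene cannot be told apart, and it ranked 2309. The partner of the strongest summit, at 13195198, ranked 1117, and 2807, 421 and 1819. Replicate 1 gave both summits of this pair their lowest place, though replicate 3 was nearer to it for the partner. With fragments of 200 to 800 bp per the labels, close pairs can share fragments and are not separate measurements.

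The genes of signalling and growth were bun, Btk and RapGAP1, and the gene of the actin-binding protein, Svil, is described after them. bun (FBgn0259176, minus strand, 2L 12455540 to 12546611) had the only 2 coding-exon summits of the set. Its strongest, at 12457877, ranked 71, and 234, 59 and 32 in the replicates (108 ± 110), in a coding exon 3379 bp from the nearest start of bun; this is the first sequence above. The intronic summit at 12465887, the second sequence, ranked 631, and 1388, 481 and 695 (855 ± 474). The third by rank, at 12487471, was intronic and ranked 758, and 1105, 680 and 1253 (1013 ± 297), with no E-box. The other 7 summits were weaker, and 3 of the 10 had no counterpart in the list of replicate 1. Promoter summits stood at 2 starts of bun, ranked 777 and 2342, and 464 bp from the start of the nested gene t-cup, ranked 1844. Of the 10 summits of bun, 2 were among the 689 strongest of the list, and the median rank was 1919.5.

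Btk (FBgn0003502, minus strand, 2L 8258373 to 8301079) had its strongest summit at one of its own starts. That summit, at 8277867, was 165 bp from the start and ranked 94, and 151, 109 and 72 in the replicates (111 ± 39.5). The summit at 8266930, in the third sequence, ranked 247, and 637, 182 and 377 (399 ± 228), 1137 bp from another start. The summit at 8276474 ranked 535, and 1393, 341 and 549 (761 ± 557), with no E-box. All 9 summits lay nearer to a start of Btk than to that of any other gene, and none was assigned to another gene. The summit with the fourth sequence, at 8282073, ranked 922 and stood apart in replicate 1, where its rank was 27722, against 706 and 464 in replicates 2 and 3. That summit was in the top regions of replicates 2 and 3 only.

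RapGAP1 (FBgn0264895, minus strand, 2L 7497805 to 7578980) had its 3 strongest summits at its own starts. The strongest, at 7530686, was 112 bp from a start and ranked 87, and 96, 95 and 76 in the replicates (89.0 ± 11.3); its window is the last sequence above. The second, at 7577077, was 470 bp from another start and ranked 321, and 499, 297 and 226 (341 ± 142). The third, at 7530891, lay 205 bp from the strongest and shared its region, ranked 643, and 96 and 480 in replicates 1 and 2, with no counterpart in replicate 3. In replicate 1 both were matched to the same summit. A summit just outside the gene, at 7496213, was 94 bp from a start of Ziz, which encodes a Dock family exchange factor, and ranked 2441. None of the 8 windows held the E-box, as in sbb.

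Svil (FBgn0266696, plus strand, 3L 2377655 to 2499226) had the lowest density of summits among the 9 genes. Its strongest summit, at 2468564, ranked 509, and 1139, 446 and 408 in the replicates (664 ± 412), 1703 bp from a start of Svil. The next, at 2489640, ranked 663, and 1565, 642 and 333 (847 ± 641), and lay inside CG1146 as well. The third, at 2466893, was 32 bp from a start of Svil and ranked 1425, and 19687, 1010 and 1476 (7391 ± 10651). Starts of Svil also had 2 further summits, 27 and 343 bp away and with ranks 2040 and 1687, and 1 was 433 bp from the start of CG16762. The largest gap between neighbouring summits in the whole set, 78874 bp, was in Svil. Of its summits, 2 lay within 10.4 kb of the 5′ end and 6 at 89.2 kb or further.

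The other 2 genes, CG1677 and CG42238, differed from each other in strength. CG1677 (FBgn0029941, minus strand, X 7281089 to 7405797) contains 13 other protein-coding genes, and all 13 of its summits lay in 1 intron of 72.5 kb in which several of those genes sit. Of the 13, 10 were also within 2000 bp of, or inside, another gene, and none was nearer to a start of CG1677 than to that of another gene; the closest was 5830 bp from a start of CG1677. The gene brk (X 7307939 to 7311132), which encodes Brinker, a repressor of Dpp target genes, shared 3 of them, which lay 603, 805 and 1975 bp from its start and ranked 1682, 571 and 1368. CG1677 shared 2 each with unc-119, Atg5, an autophagy gene, and CBP, which encodes a calcium-binding protein, and 1 each with Dok, which encodes an adaptor protein, and CG42780. The count of CG1677 cannot be told apart from that of the genes it contains.

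The strongest CG1677 summit, at 7337075, stood 277 bp from the start of CBP and ranked 32, and 29, 25 and 87 in the replicates (47.0 ± 34.7); its window is the seventh sequence. The second, at 7325030, lay inside Dok, 816 bp from the start of that gene, and ranked 160, and 189, 172 and 179 (180 ± 8.54). The third, at 7294362, ranked 348, and 401, 592 and 165 (386 ± 214), and lay 3064 bp from the start of unc-119. These 3 peaks were among the 689 strongest in the list, as were 2 more of the 13. Only 1 of the 13 windows held the E-box, at the weakest peak of the gene, rank 2532.

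CG42238 (FBgn0250867, minus strand, 2L 20965520 to 21052164) had 1 strong summit, at 21009531. It ranked 382, and 766, 443 and 271 in the replicates (493 ± 251), in an intron of 26.4 kb, 40564 bp from the nearest start. The next 2, at 21037960 and 20995974, ranked 1676 and 1774; their replicate ranks were 4825, 1120 and 2647 (2864 ± 1862) and 3969, 1235 and 2241 (2482 ± 1383). The second of them carries the fifth sequence. The other 5 ranked between 1858 and 2683. Of those, 1 was 205 bp from the start of Itgbn, an integrin beta subunit gene, just outside CG42238. With a median rank of 2092, the peaks of CG42238 were the weakest of the set.

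**Figure D4:**
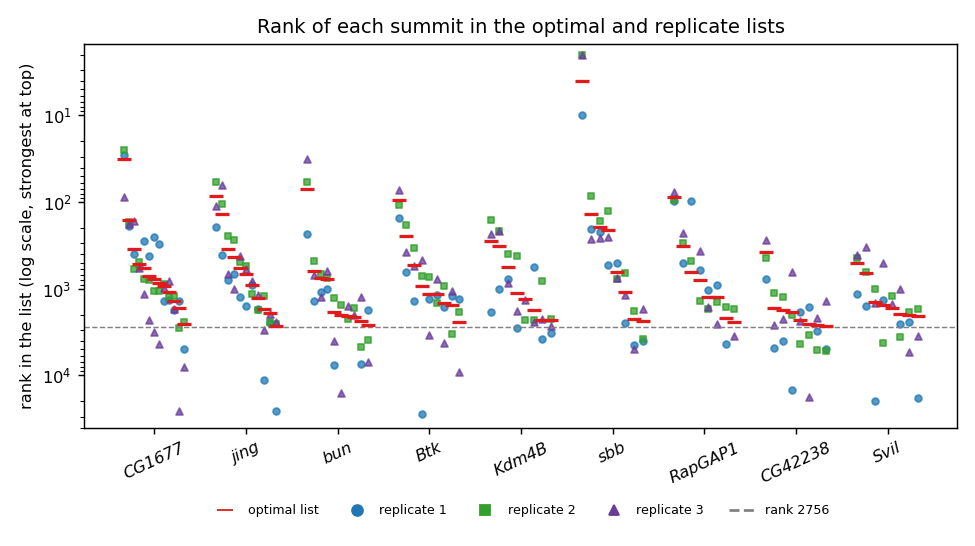
Rank by signal (y axis, log scale, strongest at the top) of each of the 83 summits, grouped by gene (x axis) and ordered by the optimal list within a gene. Red lines are ranks in the optimal list and points the matched summits in replicates 1 to 3; points below the dashed line at rank 2756 are outside that replicate's top regions, and the sbb peak at the top ranks between 2 and 10 in every replicate.

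Across the set, the median rank was 1117, against 1378.5 for the whole list. The summits lay along the genes with a median gap of 3482.5 bp between neighbours, and 6 of the 74 gaps were under 500 bp: 3 in Kdm4B and 1 each in CG1677, Btk and RapGAP1. Of the 83 summits, 21 were also assigned to another gene, and 10 of these belonged to CG1677. The nearest start was one of the gene's own for 54 of the 83, including all 9 of Btk and none of the 13 of CG1677. Of the regions, 2 held a pair of summits each, so the 83 summits came from 81 regions. Where such regions were counted once, Kdm4B and RapGAP1 dropped to 7.

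The E-box was present within 100 bp of 18 of the 83 summits (21.7%), against 17.9% of all optimal summits. In windows of the same width 1000 bp to each side it was present in 9 of 166 (5.42%) around the 83 summits and in 7.38% around all. In the top regions of replicates 1, 2 and 3 that lay in the 9 genes, the share was 13.3%, 23.5% and 20.5% (19.1 ± 5.20%). The share over all top regions of each replicate is not given here, so these 3 values have no matched background. By gene it was present at 4 of 8 summits of Kdm4B, 4 of 11 of jing, 4 of 10 of bun and 2 each of Btk (9) and CG42238 (8). It was at 1 of 13 of CG1677 and 1 of 8 of Svil. The 18 summits with the E-box had a median rank of 1445.5, and 7 of them were among the 689 strongest. The other 65 had a median rank of 1092, with 23 among the 689 strongest. Of the 18, 2 were at promoters and 8 in the top regions of all 3 replicates, against 16 and 36 of the 65. Genes of the set were thus bound at summits both with and without it.

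CAGCTG, the core of the first E-box word, was present at 19.3% of the 83 summits and 19.4% of all. CAGGTG was present at 4 of the 83 (4.82%), against 12.8% of all, and at 5.0%, 6.17% and 6.02% in the top regions of the 3 replicates in these genes. In windows 1000 bp to each side, CAGGTG was in 9 of 166 (5.42%) around the 83 summits and in 7.26% around all. CAGCTG was in 5.42% and 9.18% of the same windows. CATATG was at 8.43%, against 7.91%. The motif CAGGTAG, bound by the early activator Zelda, was at 3.61%, against 2.58%, and GAGAGAG, bound by GAGA factor, at 4.82%, against 6.39%. GTGGGAA, bound by Su(H), the transcription factor of the Notch pathway, was at 3.61%, against 2.72%. TATCGATA, the word bound by DREF, was at none of the 83 and at 1.52% of all. Median GC content was 38.3% at the 83 summits and 38.8% at all. A match of letters is a description and not a shown binding site.

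Related genes from lists chosen with the roles of the 9 in mind were bound to differing degrees. Among 7 co-repressors, sbb and 5 of the other 6 had a summit: Gug, gro, HDAC1, Sin3A and Smr had 2 each, and CtBP had none. Among 7 tyrosine kinases of the Src, Tec and Abl families and their relatives, Btk (9) was followed by Src64B (5), FER (3), Abl (1) and Csk (1), and Src42A and Shark had none. In the Rap1 pathway, RapGAP1 (8) was accompanied by cno (2), which encodes the junction protein Canoe, with a best rank of 6, and C3G (2), an exchange factor. Rap1 itself and the exchange factors PDZ-GEF and Epac had none. Of the 7 histone lysine demethylases, Kdm2 (2) and Kdm5 (1) had a summit beside Kdm4B. Of the 8 genes for PRC2 and its accessory proteins, E(z) and Caf1-55, Caf1-55 with a best rank of 9, had 1 each beside jing. No other gene of the villin and gelsolin list, and not the bun partner Madm, had a summit. Beside the 19.0% of all protein-coding genes with a summit, 15 of the 34 listed genes that are not among the 9 had one; the lists are short and genes differ in length, so no test was made.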

How the data were processed

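ChIP-seq of GFP-tagged Ac in 3 replicates was analysed from the deposited peak lists on dm6. Per the file headers and notes, the authors made a list of 30000 regions per replicate and 1 from all replicates, each against a control alignment, and an optimal list by the irreproducible discovery rate (IDR). For the peak caller, its version and the IDR threshold, values were not given in the sources used here. The signal value deposited per region is the authors', on an unstated scale, and only ranked regions within a list. The deposited −log10 q value set a threshold of 0.05. The lists hold no read counts, so depth is unknown. The control alignment and the dm3 lists were not analysed here.

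Genes were the protein-coding ones of FlyBase release 6.54, read from RefSeq. All analysis used Python 3.11.15, numpy 2.4.6, pandas 2.3.3 and scipy 1.17.1, and counting was tested on simulated summits. Summits within 150 bp matched between lists. Motifs were sought within 100 bp of a summit. No test was made: 1 group, members chosen by the counts, and lists that share reads. The members and lists were chosen with earlier results of these data known. The genes named were the 9 genes, with their 3 strongest summits each in full, the others with 8 or 7 summits, the most similar gene, genes with a start within 500 bp of a summit and genes of the role lists; brk and the other genes sharing summits with CG1677 were named after their values were seen, as were single weaker summits. Alternatives changed the gene extension, peak strength, replicates, merging of close summits, gene models, promoter distance, matching distance, motif window and density denominator.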

Additional observations from a re-analysis of the deposited data

How the results depend on the processing

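The number of genes with 8 or more optimal summits was 16. It fell to 1 (CG1677, with 9) when only the 1000 strongest peaks were counted, and to between 2 and 5 without replicate 1, 2 or 3, where both other replicates had to hold a summit among their top regions. Of the 9 genes, 3, 2 and 2 still reached 8 without replicate 1, 2 and 3. Each such version is a subset with stricter support, since the IDR step was not rerun. The distinct summits of the 9 genes were 83 and ranged from 48 to 57 without 1 replicate. Their promoter share, 21.7%, was 10.8% within 200 bp and 31.3% within 1000 bp of a start, and 12.5% to 15.8% without 1 replicate. The share in the top regions of all 3 replicates, 53.0%, was 32.5% when summits had to match within 50 bp. The E-box share, 21.7%, was 8.43% in windows of 50 bp to each side, and 15.7% to 22.8% without 1 replicate. With the genes not extended, 6 of the 9 kept 8 or more, and with an extension of 1000 bp, 7 did. When summits within 500 bp were merged, Kdm4B dropped to 5, RapGAP1 to 7 and 7 of the 9 genes kept 8. When regions with the same start and end were counted once, an alternative chosen after seeing the data, 7 kept 8. No paired analysis was possible because there was 1 group with no contrast.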
